A study of Mus musculus with 2 samples.

Results

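Type 2 dendritic cells (type 2 DCs) were selected from 2 single-cell RNA libraries of tumor-infiltrating immune cells, and they made up 106 of 2074 cells that passed the filters, 43 of 988 in the WT library and 63 of 1086 in the KO library. They were chosen by their transcripts. A cell entered with at least 3 UMIs (unique molecular identifiers, each counting 1 captured mRNA molecule) of Cd209a, Clec10a and Mgl2 together, at most 1 UMI of Xcr1 and Clec9a, at most 4 of C1qa, C1qb and C1qc, at most 2 of Fscn1, Ccl22 and Cacnb3, and at most 1 of Cd3d, Cd3e and Cd3g. These genes were used to choose the cells, so their levels are not results. The cells came from B16Ova melanomas, an ovalbumin-expressing mouse tumor line grown under the flank skin of female mice and harvested on day 13. All mice, controls included, carried Tcf7 FL/FL. WT mice were E8i-cre- and KO mice (Tcf7 cKO) were E8i-cre+, a Cre driven by a Cd8a enhancer that acts in mature CD8 T cells. Each group was a pool of 3 tumors in 1 library, so the KO and WT comparison has no replicate check. CD8 T cells, CD4 T cells, a CD11c+ MHCII+ CD24+/low gate that was negative for CD64, and the remaining CD45+ cells were sorted, 2000 of each per tumor, and mixed in equal parts, so the sort sets the shares of cells in part.

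Conventional DCs arise from bone marrow precursors under the growth factor Flt3 ligand and fall into type 1 cells (cDC1s), which depend on Irf8 and Batf3 and carry antigen to CD8 T cells, and type 2 cells, which carry Sirpa, use Irf4 and Zeb2, and mainly present antigen on MHC class II to CD4 T cells. Inflamed tissue also holds cells derived from monocytes that take up many of the same surface receptors, and type 2 DCs in tumors often share transcripts with them. Interferons released by T cells, by other lymphocytes or by myeloid cells switch on antiviral genes, guanylate-binding proteins and the chemokines Cxcl9 and Cxcl10 in such cells.

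The libraries held 1120 WT and 1219 KO barcodes, of which 132 and 133 were left out by the filters (at least 500 UMIs and 300 genes, at most 10% mitochondrial UMIs). One barcode sequence occurred in both libraries, and none among the filtered cells (0 shared). Type 2 DCs had a median of 13402 UMIs in WT and 13498 in KO (range 1841 to 24524 and 2836 to 24941), close to each other. cDC1s, chosen by Xcr1 and Clec9a, numbered 114 and 130 with medians of 16814.5 and 18013.5 UMIs. Monocytes, chosen by Ly6c2, Vcan, Chil3, F13a1 and Ms4a6c, numbered 20 and 72 with medians of 7800 and 9184.5. Macrophages, chosen by at least 10 UMIs of the C1q genes, numbered 30 and 39 with medians of 3082.5 and 6193. The targeted gene Tcf7 had no UMI in type 2 DCs of either library, where a count of 0 allows up to 4.96 CPM (UMIs per 1000000 UMIs of the class) in WT and 3.39 in KO. In cells with at least 2 UMIs of Cd8a and Cd8b1 and 2 of the Cd3 genes, Tcf7 was at 119 CPM in WT and 50.8 CPM in KO, with a UMI in 93 of 185 and 64 of 197 cells. The deposited counts do not say whether those UMIs fall in the deleted part of the gene.

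Of the cells with at least 3 UMIs of the selecting genes, 75 in WT and 109 in KO, the Cd3 limit left out 20 and 28, the Xcr1 and Clec9a limit 13 and 14, the C1q limit 4 and 8, and the Fscn1 limit 4 and 5, with some cells over several limits. Members held a median of 18 (WT) and 23 (KO) selecting UMIs, from 3 to 171 and from 3 to 156. Just inside the threshold, with exactly 3 UMIs, were 2 cells in each library. Just outside, with 2 UMIs and all other limits met, were 1 WT and 4 KO cells. Cd209a was found in 37 and 53 members, Clec10a in 34 and 50, Mgl2 in 19 and 29, and all 3 genes in 12 and 19. No member was called a doublet by Scrublet, which called 5 WT and 3 KO cells in all.

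As a share of filtered cells, type 2 DCs were 4.352% in WT (95% Clopper-Pearson interval 3.167 to 5.818) and 5.801% in KO (4.486 to 7.361). Of type 2 DCs and cDC1s together they were 27.39% (20.58 to 35.07) and 32.64% (26.08 to 39.75). The sorting gate of each cell is not known, so the latter may not be a share within a gate. The intervals of the 2 libraries overlapped for both shares. Intervals here and below cover counting error only.

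The name was checked against markers that the selection did not use. Zbtb46, a transcription factor of conventional DCs, was at 43.0 CPM in WT and 47.5 in KO type 2 DCs, at 59.9 and 55.5 in cDC1s, at 0 and 1.46 in monocytes, and at 0 in macrophages of both libraries. Both DC classes thus lay above both other classes. Flt3, the receptor for the DC growth factor, was at 61.2 and 37.3 CPM in type 2 DCs, against 6.62 and 13.1 in monocytes and 4.91 and 0 in macrophages. Sirpa, which marks type 2 over type 1 cells, was at 142 and 132 CPM in type 2 DCs and at 0 and 0.867 in cDC1s. Markers of several other lineages were near 0: the listed T cell genes summed to 3.31 and 3.39 CPM, the NK genes to 3.31 and 3.39, the neutrophil genes to 4.96 and 0, the melanoma genes to 6.62 and 14.7, and the Langerhans cell genes to 3.31 and 12.4. Lck, Ncr1 and S100a8 had no UMI in type 2 DCs of either library. A count of 0 allows up to 1.60 CPM in WT cDC1s, 19.9 in WT monocytes and 14.7 in WT macrophages, and 1.3, 4.37 and 8.31 in KO.

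Not every cell met the name. MHC class II (H2-Aa, H2-Ab1, H2-Eb1 and Cd74) had medians of 680.8 and 644.8 UMIs per 10000 UMIs of a cell, but 3 WT cells (15.2 to 62.8) and 5 KO cells (1.54 to 19.2) fell under 100, while the next cells lay at 180 and 128. Of these 8 cells, 2 WT and 4 KO held at least 2 UMIs of the monocyte genes, and 1 and 2 held at least 2 UMIs of the plasmacytoid DC genes Siglech and Ccr9. The plasmacytoid DC list was not near 0: its 6 genes summed to 850 and 1227 CPM. The sum was 447 and 501 in cDC1s, 676 and 706 in monocytes and 1498 and 961 in macrophages, so it was not particular to type 2 DCs. Most of its type 2 DC UMIs were of Bst2 (378 and 741), which was found in 42 of 43 and 63 of 63 members. Of 4 genes tested 3 (Cox6a2, Tcf4 and Ly6d) were higher than in each of the 3 other classes by the edgeR fit described below. Cox6a2 was found in only 2 and 4 members and Ly6d in 1 and 3. Across all members, 4 WT and 5 KO cells held that many Siglech and Ccr9 UMIs, and all UMIs of Ly6d, an early lymphoid and plasmacytoid DC gene, were in them. Fcgr1, which encodes the CD64 protein absent from the sorted DC gate, was found in 24 of 43 and 46 of 63 type 2 DCs, at 175 and 227 CPM. It was at 9.09 and 9.10 CPM in cDC1s, 629 and 701 in monocytes and 751 and 656 in macrophages, so type 2 DCs lay between. The labels do not tie a barcode to the gate it was sorted in.

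To describe which genes set type 2 DCs apart, UMIs were summed per class and library and the 8 sums fitted in edgeR with class and library as terms. The cells were gated by transcripts, and the 2 libraries differ in genotype. The adjusted p-values (edgeR quasi-likelihood, Benjamini-Hochberg) therefore describe how alike the class differences were in the 2 libraries, with any genotype difference in the residual. The contrasts share the same type 2 DC sums. Of 6680 genes, type 2 DCs were higher at an adjusted p under 0.05 and at least 2-fold for 609 (9.12%) and lower for 292 (4.37%) against cDC1s, higher for 359 (5.37%) and lower for 470 (7.04%) against monocytes, and higher for 363 (5.43%) and lower for 426 (6.38%) against macrophages. Against the mean of the 3 classes 303 genes (4.54%) were higher and 113 (1.69%) lower.

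The genes highest in type 2 DCs over the mean of the 3 classes included lectins and receptors. Cd209c and Cd209d, relatives of the DC-SIGN lectin, were at 144 and 141 CPM and at 134 and 106 CPM in WT and KO, and at 0 in every other class sum except 1.46 CPM of Cd209d in KO monocytes. They lie beside the selecting gene Cd209a on chromosome 8 of GRCm38 (Cd209a at chr8:3743397-3748984, Cd209d at chr8:3871824-3878555, Cd209c at chr8:3940222-3954746, all on the minus strand). The 3 genes are close paralogs, so reads may have been divided among them and these values are uncertain. Cd7, an immunoglobulin-family receptor better known on T and NK cells, was at 313 and 334 CPM against at most 3.21 in any other sum, a log2 difference of 7.54 ± 0.295 (SE; adjusted p = 3.18e-09). A Cd7 UMI was found in 24 of 43 and 32 of 63 cells (55.8% and 50.8%), and in 3.51% and 1.54% of cDC1s, which were sequenced more deeply. After thinning each cell to 3000 UMIs the shares were 36.1% and 33.5%, so Cd7 marked many but not all members. Klrd1, the CD94 chain of NK cell lectin receptors, was at 581 and 362 CPM, at 29.4 and 16 in cDC1s, at 0 and 4.37 in monocytes and at 0 in macrophages. It had 31 and 48 positive cells (72.1% and 76.2%, or 56.7% and 46.4% after thinning). Of 6 other listed NK cell genes 5 had no UMI in type 2 DCs of each library, Ncr1 among them.

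Ifitm1, an interferon-induced membrane protein, stood at 2541 and 1897 CPM in type 2 DCs, 374 and 14.3 in cDC1s, 46.4 and 40.8 in monocytes and 34.4 and 122 in macrophages (log2 against the mean 4.71 ± 0.569, adjusted p = 0.00012). Il1r2, the decoy receptor that binds interleukin 1 without signalling, was at 551 and 298 CPM against at most 19.3 elsewhere (5.47 ± 0.437, adjusted p = 4.26e-06). Apod, a lipocalin, was at 96.0 and 54.2 CPM against at most 8.23. These genes were thus high in both libraries. Ccl17, a chemokine that attracts Ccr4-bearing T cells, was at 119 and 180 CPM, at 3.74 and 5.20 in cDC1s and at 0 in the other sums, but only 3 WT and 8 KO cells held a UMI and the top cell of each library held 69 of 72 and 127 of 159 UMIs. Its level is therefore that of a few cells. Pltp, a phospholipid transfer protein, was high against cDC1s (291 and 286 CPM against 0.535 and 0) but not against macrophages (398 and 487 CPM).

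**Figure D1:**
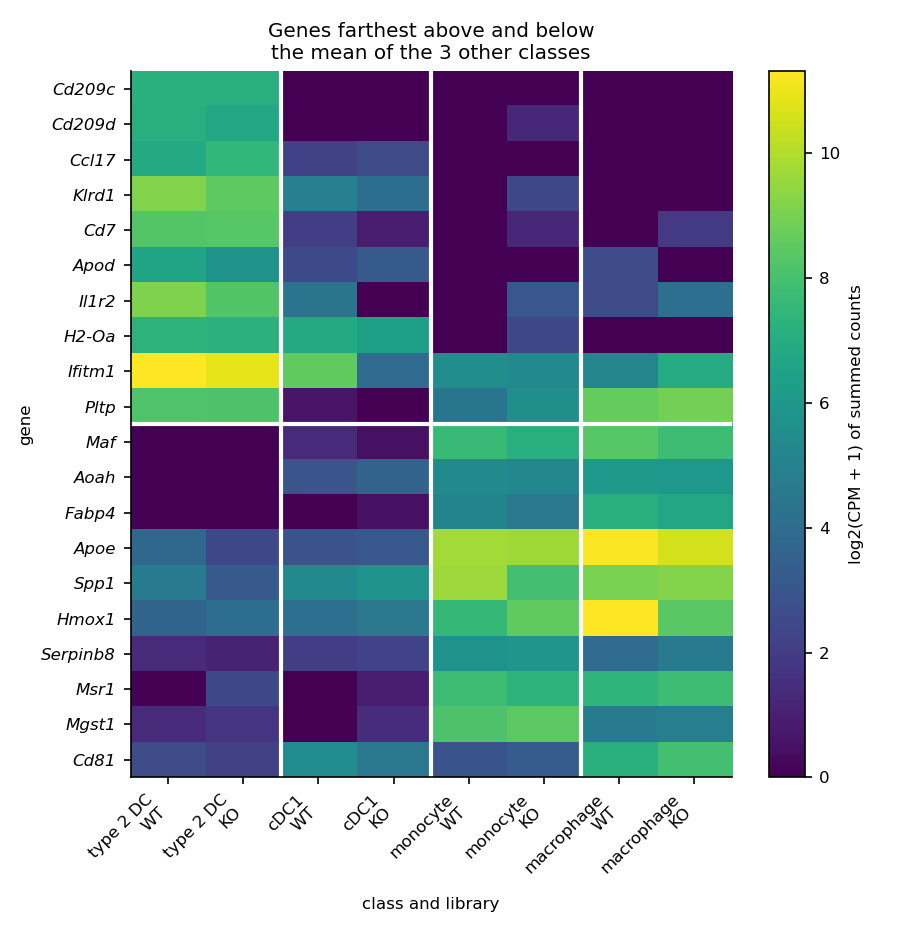
Heat map of log2(CPM + 1) of 20 named genes (rows) in the 8 class sums (columns, WT and KO of each class); brighter is higher. Cd209c, Cd209d, Cd7 and Klrd1 are brightest in the 2 type 2 DC columns, and Maf, Aoah and Fabp4 are at 0 there.

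Against cDC1s, 9 of 13 tested genes of the type 2 DC list were higher and 1, Cd24a, was lower. Against monocytes 5 were higher and 3 lower (Zeb2, Clec4a2 and Clec12a), and against macrophages 5 were higher and 2 lower (Zeb2 and Clec4a2). Sirpa was at 278 and 160 CPM in monocytes and 265 and 227 in macrophages, not below its level in type 2 DCs. Beside Sirpa, the listed genes that were higher than in cDC1s included the membrane proteins Tmem176a and Tmem176b. The transcription factors Irf4 (21.5 and 18.1 CPM against 0 and 0 in cDC1s) and Zeb2 (147 and 124 against 0.535 and 3.90, edgeR log2 5.71 ± 0.437, adjusted p = 1.03e-06) were also among them. Clec4n (Dectin-2, a receptor for fungal mannans) was at 296 and 329 CPM against 0 and 1.73 (8.09 ± 0.502, adjusted p = 1.41e-07), and Sirpb1a, a receptor of the SIRP family, at 62.9 and 85.9 against 0 in both. Of 6 Fc receptor genes, which bind antibody complexes, 4 were higher, among them the shared signalling chain Fcer1g (2687 and 2619 CPM against 350 and 367; log2 2.81 ± 0.147, adjusted p = 5.4e-08). Of 26 pattern and lectin receptor genes 12 were higher and 4 lower, the latter Tlr3, Tlr11, Ly75 and Cd36.

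All 14 tested cDC1 genes were lower in type 2 DCs than in cDC1s. Irf8, the master transcription factor of cDC1s, was at 147 and 386 CPM against 2003 and 1944 (log2 -3.01 ± 0.305, adjusted p = 1.20e-05). Cst3, the protease inhibitor cystatin C, was at 4594 and 8246 against 31463 and 35286 (-2.46 ± 0.341, adjusted p = 0.000171). Gcsam had 0 and 1.13 CPM against 187 and 150, and Snx22 1.65 and 0 against 134 and 116. Itgae (CD103) had 0 and 9.04 CPM against 167 and 144, Tlr3, a receptor for double-stranded RNA, 0 and 3.39 against 66.3 and 59.8, Cxx1c 9.93 and 11.3 against 225 and 197, and A530099J19Rik 0 and 3.39 against 72.2 and 97.9. Xcr1 and Clec9a were held low by the selection, and the other genes were not used by it.

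MHC class II genes were higher than in monocytes and macrophages, and most did not pass the test against cDC1s. Cd74, the invariant chain, was at 37805 and 35231 CPM in type 2 DCs and 34389 and 31727 in cDC1s (log2 0.07 ± 0.448, adjusted p = 0.952), against 1411 and 7940 in monocytes and 13905 and 12570 in macrophages. Of 13 tested genes 11 were higher than in monocytes and 11 higher than in macrophages. Only H2-DMb2, Ctss and Ifi30, which act on antigen in the endosome, passed against cDC1s, none of the 13 being lower. H2-DMb2, a chain of the peptide exchange factor, was at 571 and 472 CPM against 165 and 193 (1.47 ± 0.21, adjusted p = 0.000214). H2-Oa, a chain of its inhibitor, was at 159 and 153 CPM, close to cDC1s at 121 and 85.8, and at 0 and 4.37 in monocytes and 0 in macrophages.

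Genes of macrophages were lower in type 2 DCs than in macrophages, and those of monocytes less uniformly so: of 13 monocyte genes 5 were lower and 1, Ly6a, was higher than in monocytes, and 9 were higher than in cDC1s. All 19 macrophage genes were lower than in macrophages and 16 lower than in monocytes, while 10 were higher than in cDC1s. Apoe, an apolipoprotein of macrophages, was at 13.2 and 4.52 CPM against 854 and 835 in monocytes and 2446 and 1498 in macrophages (against macrophages -7.80 ± 0.327, adjusted p = 5.96e-09). Maf, a macrophage transcription factor, had no UMI in type 2 DCs and was at 199 and 138 and at 334 and 222 CPM in the other 2 classes. Fabp4 and Aoah likewise had no UMI. Also at 0 in type 2 DCs of both libraries were Cd177, Cxcl3, Irg1 and Plcb1, named for the contrast with monocytes (152 and 115, 113 and 118, 99.4 and 118, and 59.6 and 65.6 CPM there), and Pf4 and Vcam1, named for that with macrophages (540 and 545, and 68.8 and 150 CPM there). The scavenger receptor Msr1 had 0 and 4.52 CPM, Spp1 (osteopontin) 24.8 and 7.91, Hmox1 (haem oxygenase) 11.6 and 15.8, Mgst1 1.65 and 2.26, Cd81 4.96 and 3.39 and Serpinb8 1.65 and 1.13, all called lower than the mean of the 3 classes. Csf1r, the receptor of the macrophage growth factor, had an intermediate level of 121 and 70.1 CPM, against 0.535 and 4.33 in cDC1s and 332 to 459 in the others. Of 19 lysosome and protease genes 13 were higher than in cDC1s, 9 lower than in monocytes and 11 lower than in macrophages. The protease Ctsb, for example, was at 748 and 443 CPM, at 218 in both cDC1 sums, at 3107 and 1990 in monocytes and at 6601 and 4557 in macrophages.

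Of 15 chemokines 7 were higher than in cDC1s and 10 lower than in monocytes and 10 lower than in macrophages. Ccl2 was at 49.6 and 39.6 CPM against 1040 and 1774 in monocytes and 2849 and 2974 in macrophages. Ccl9 was at 337 and 166 CPM against 0.535 and 0.867 in cDC1s. The chemokine receptor Ccr2, which brings monocytes into tissue, was at 313 and 297 CPM in type 2 DCs, 228 and 206 in cDC1s and 709 and 662 in monocytes. Csf2rb2, a cytokine receptor chain, was higher in type 2 DCs than in each of the 3 other classes (92.6 and 93.8 CPM against at most 49.6). Of the interferon-response genes, 11 of 23 type I genes and 12 of 17 interferon gamma genes were higher than in cDC1s, and 1 type I gene, Ifi205, was lower. Rtp4 was at 200 and 332 CPM against 2.67 and 2.17 (6.65 ± 0.36, adjusted p = 6.83e-08), and Cxcl10 at 551 and 729 against 2.14 and 19.1 (5.97 ± 0.37, adjusted p = 1.41e-07). Against macrophages 0 of the 23 type I genes were higher and 3 lower (Oasl1, Irf7 and Ifi27l2a). Of 18 cell cycle genes 10, Mki67 among them, were lower than in cDC1s and 12 higher than in monocytes.

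Members differed among themselves. The dispersion index (observed over depth-expected squared deviation, 1 for counting noise alone) had a median of 1.197 in WT and 1.169 in KO over 5177 genes with at least 0.2 UMIs per cell in both libraries. The 12 genes of highest mean rank over the 2 libraries were Gm42418, Lyz2, Ly6d, Cxcl10, Cd74, Ifitm1, Cst3, Ccl17, Cxcl9, Ccl6, Crip1 and Tmsb10. Lyz2, the lysozyme of monocytes and macrophages, had an index of 162 and 79.2, with 22 of 43 and 33 of 63 cells holding a UMI and up to 237 and 210 UMIs in 1 cell. Cxcl10 was found in only 9 and 23 cells, with up to 158 and 138 UMIs.

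At least 2 UMIs of Ly6c2, Vcan, Chil3 and F13a1 were found in 11 of 43 WT (25.6%) and 24 of 63 KO members (38.1%). This set also held cells with plasmacytoid DC transcripts: all Ly6d UMIs of the members (24 WT, 190 KO) lay in it. Siglech was found in 2 WT and 4 KO cells of the set and in 2 and 2 of the rest. The cells with monocyte transcripts had Cst3 at 2668 CPM against 5175 in the rest in WT and 5658 against 10120 in KO, and H2-Aa at 9018 against 13334 and 10050 against 11898. Without the cell with the most UMIs of the gene in each set of cells, Cst3 was at 2529 against 4837 and 5199 against 9275 and H2-Aa at 6790 against 13103 and 9564 against 11773. Leaving out high cells cannot show whether a few low cells set these differences. Of the 3 WT and 5 KO members low in MHC class II, 2 and 4 were among the cells with monocyte transcripts. The split was not repeated without them. Lyz2, Fn1 and Ctsl were summed higher in the cells with monocyte transcripts, in part through single cells. Lyz2 was at 4331 against 543 CPM in WT and 818 against 288 in KO, and without the top cells at 2913 against 337 and 267 against 207. Fn1 was at 307 against 168 and 221 against 11.7 CPM, and without the top cells at 32.6 against 27.2 and 14.2 against 4.04. Ctsl was at 157 against 21.5 and 202 against 15.6 CPM, with all 22 WT UMIs of the cells with monocyte transcripts in 1 cell. Cd7 did not follow the split (307 against 314 and 334 against 335 CPM). The split was made after the cells were seen, so no test is given. Across cells, monocyte UMIs and MHC class II UMIs, both per 10000, had a Spearman correlation of -0.445 over 43 WT cells and -0.286 over 63 KO cells (Pearson -0.484 and -0.261). Both measures share the cell's total as denominator, and the members low in MHC class II are included.

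**Figure D2:**
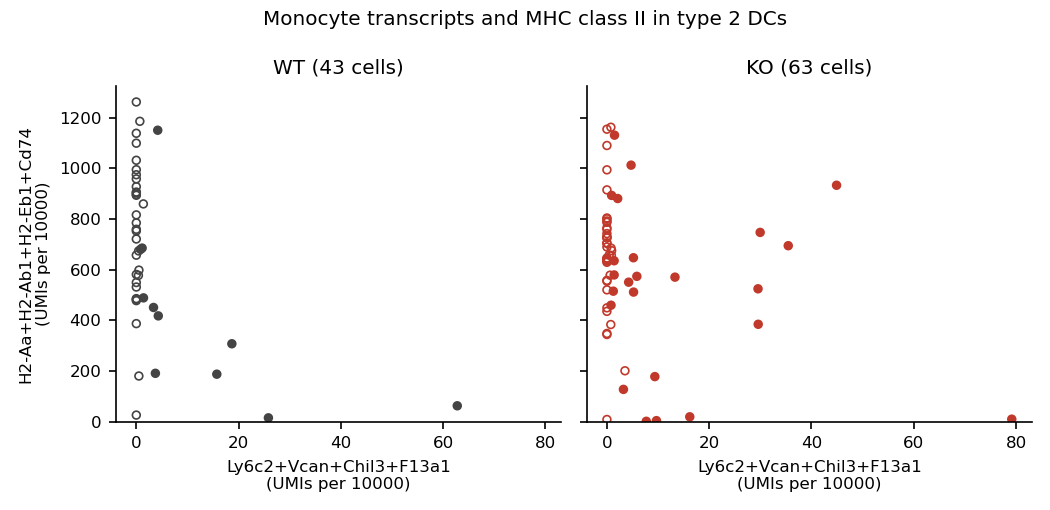
Each point is 1 type 2 DC, WT left and KO right; the x axis is Ly6c2, Vcan, Chil3 and F13a1 UMIs and the y axis H2-Aa, H2-Ab1, H2-Eb1 and Cd74 UMIs, both per 10000 UMIs of the cell, and filled points have at least 2 monocyte UMIs (11 WT, 24 KO). Most cells lie high on the y axis, and 3 WT and 5 KO cells lie under 100.

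KO and WT type 2 DCs were compared as the ratio of summed levels with an exact 95% interval from the counts. A gene was called at 1.5-fold or more with an interval that excludes 1. Among 2787 genes with at least 50 CPM in 1 library, 170 (6.10%) were called higher and 156 (5.60%) lower in KO, and the median log2 ratio was -0.004. With 1 library per group these calls compare the libraries and not the genotypes, and differences between pools of mice cannot be told apart from the genotype.

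The genes that were higher in KO included many interferon-response genes. Of 22 measured type I interferon genes 14 were called higher and 0 lower (median log2 ratio 0.73). Of 15 measured interferon gamma genes 11 were called higher and 0 lower (median 0.81), against -0.004 over all genes. Another 1 type I gene and 4 interferon gamma genes did not reach 50 CPM in either library, so the counts are not over the whole lists. Ifit1, an antiviral RNA-binding protein, was at 101 CPM in WT and 272 CPM in KO, a ratio of 2.70 (95% interval 2.03 to 3.64). The WT library had 10 positive cells of 43 (23.3%) and the KO library 32 of 63 (50.8%), against 7.02% and 5.38% of the deeper cDC1s. After thinning to 3000 UMIs the type 2 DC shares were 15.5% and 33.5%, and the cDC1 shares 2.27% and 2.32%. Ifit3 was at 170 and 341 CPM (2.0, 1.6 to 2.53), Irf7, the transcription factor that amplifies type I interferon, at 376 and 720 (1.92, 1.64 to 2.24), and Usp18, a brake on the interferon receptor, at 139 and 281 (2.02, 1.58 to 2.62). Isg15, at 878 and 1278 CPM, had a ratio of 1.45 (1.31 to 1.62) and so was not called.

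Of the interferon gamma genes, Cxcl9, the chemokine that attracts Cxcr3-bearing T cells, was at 190 and 723 CPM (ratio 3.80, 3.11 to 4.68) and was found in 7 WT and 21 KO cells. Without the cell with most Cxcl9 in each library it was at 82.8 and 540 CPM. Cxcl10 was at 551 and 729 CPM (1.32, 1.16 to 1.51) and was not called. The guanylate-binding proteins, GTPases that attack vacuoles of pathogens, were higher together: Gbp2 at 157 and 275 CPM (1.75, 1.37 to 2.24), Gbp5 at 11.6 and 62.2 (5.37, 2.44 to 14) and Gbp7 at 38.1 and 115 (3.03, 1.91 to 4.99). Cd274, which encodes the inhibitory ligand PD-L1, was at 33.1 and 59.9 CPM (1.81, 1.06 to 3.20). The Cd274 call was lost with at least 5 selecting UMIs (log2 0.76), with the selecting UMIs scaled to depth (0.79) and without cells with mitotic UMIs (0.69).

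**Figure D3:**
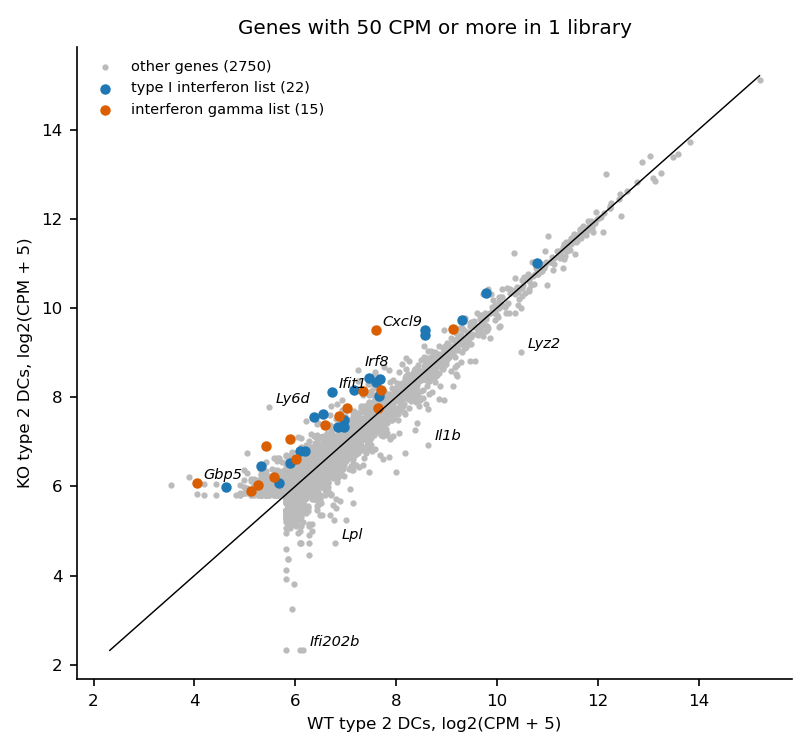
Each point is 1 of 2787 genes in type 2 DCs, with log2(CPM + 5) in WT on the x axis and in KO on the y axis; the 22 type I interferon genes are blue, the 15 interferon gamma genes orange and the line marks equal levels. Most coloured points lie above the line, and none was called lower.

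Counted per cell, the higher sums were not those of 1 cell. UMIs of the type I list per 10000 UMIs ranged from 0 to 182 in WT with a median of 37.4, and from 8.10 to 370 in KO with a median of 72.2. For the interferon gamma list the range was 0 to 195 with a median of 3.83 in WT and 0 to 439 with a median of 12.2 in KO. The 2 libraries overlapped widely, and the top cell held 7.90% and 7.52% of the type I UMIs and 21.0% and 14.4% of the interferon gamma UMIs. MHC class II list UMIs had medians of 750.2 and 712.1, and of its 13 genes 1, the regulator Ciita (59.6 and 92.7 CPM), was called higher and 0 lower.

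**Figure D4:**
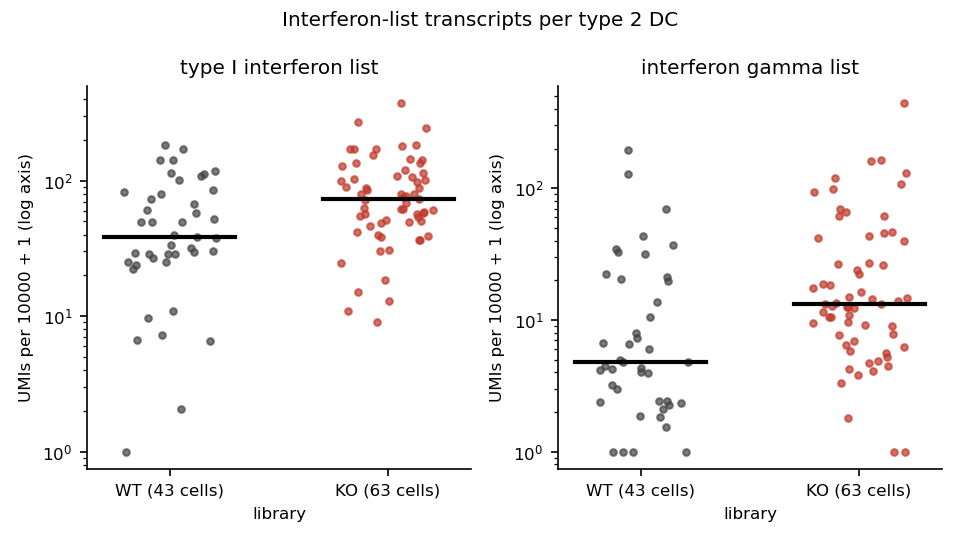
Each point is 1 type 2 DC (43 WT, 63 KO), with list UMIs per 10000 UMIs plus 1 on a log axis for the type I and the interferon gamma list; bars are medians. The KO medians, 72.2 and 12.2, lie above the WT medians, 37.4 and 3.83, and the 2 libraries overlap.

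The share of members with at least 2 UMIs of the monocyte-selecting genes was 25.6% in WT and 38.1% in KO. Of those genes, given as a description, Ly6c2 had 165 and 502 CPM, F13a1 39.7 and 2.26, Vcan 3.31 and 4.52 and Chil3 0 and 1.13, so the higher KO share came with Ly6c2 and not with all 4. A Lyz2 UMI was found in 7 of 11 WT and 13 of 24 KO members of this set. Of the rest 15 of 32 and 20 of 39 held one. As the set also held cells with plasmacytoid DC transcripts, its share is not that of monocyte-like cells alone. The monocyte list summed to 14937 and 15901 CPM with 2 of 11 measured genes called in each direction. Without the members that held monocyte transcripts, 12 of 22 type I and 12 of 16 interferon gamma genes were still called higher, with medians of 0.68 and 0.96. Over all alternatives the type I count ranged from 6 to 17. It was 6 when cells with at least 3 UMIs of a cycling list were removed, which left 7 cells per library, and 7 of 11 genes at a minimum of 200 CPM. In that 7-cell setting 1 type I gene was called lower.

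In cDC1s, where 2.91% of genes were called higher and 3.19% lower, 0 of 11 measured type I genes and 3 of 7 interferon gamma genes were called higher (medians 0.09 and 0.28). Monocytes (4.49% and 6.16%) had 8 of 22 and 6 of 15 called higher. In macrophages (6.43% and 5.18%) 8 of 22 type I genes were called lower and 0 higher, and of 13 interferon gamma genes 3 were called higher and 4 lower (median -0.07). Ifit1 was at 216 CPM in WT and 74.8 in KO macrophages, while in cDC1s it was at 9.63 and 12.1 CPM. Cxcl9 was higher in KO in all 4 classes, at 128 and 286 CPM in cDC1s, 179 and 382 in monocytes and 29.5 and 473 in macrophages. No test of the difference between classes is possible with 1 library per group.

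**Figure D5:**
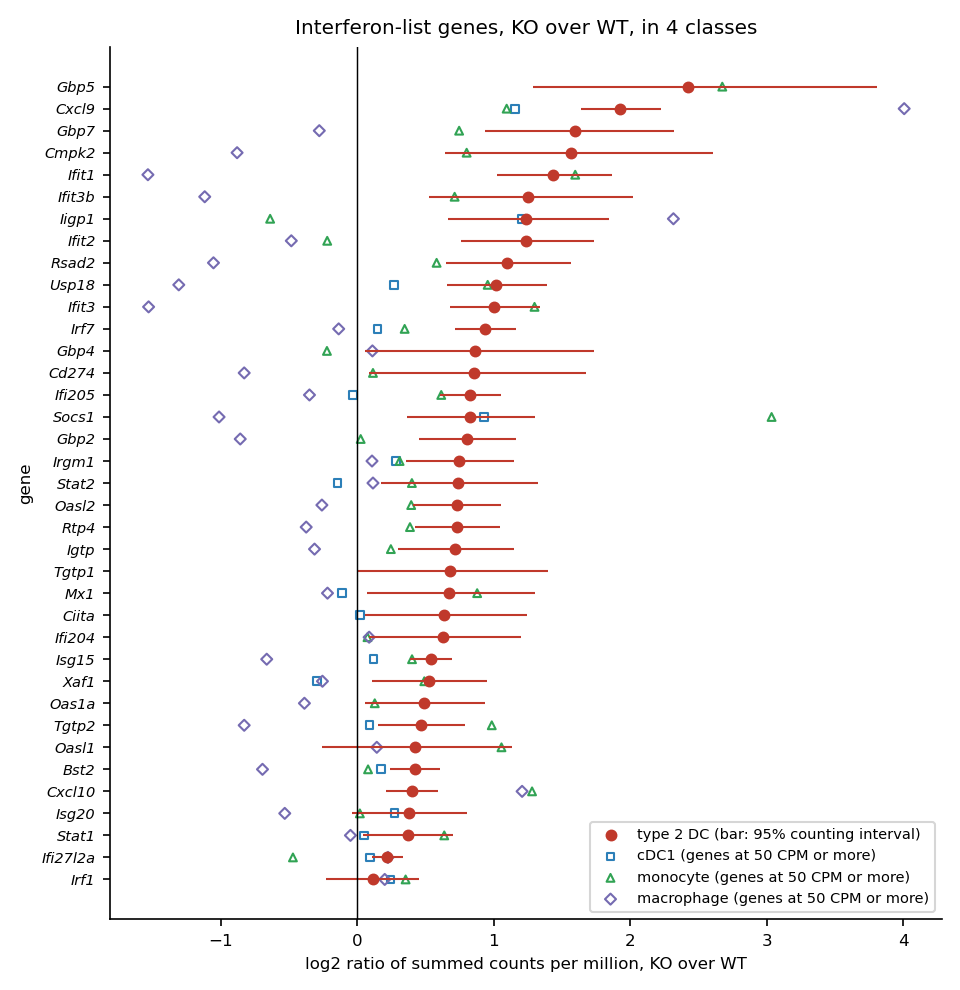
Log2 KO over WT ratio (x axis) of the interferon-list genes (rows); filled points are type 2 DCs with their 95% counting interval, and open symbols are cDC1s, monocytes and macrophages for genes with at least 50 CPM there. Type 2 DC points such as Cxcl9 and Ifit1 lie to the right of 0, and several macrophage symbols, Ifit1 among them, lie to the left.

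Because members of these lists moved together, their promoters were read for the core of the interferon-stimulated response element, to which interferon regulatory factors bind. The window ran from 250 bases before to 50 bases after the RefSeq start (GRCm38.p6), and the motif was GAAANNGAAA on either strand, which reads TTTCNNTTTC on the other. It occurred in 943 of 27025 promoters (3.49%) and in 110 of 2162 promoters matched to measured genes (5.09%). Among the genes called higher in KO it occurred in 25 of 135 matched promoters (18.52%), which include interferon-list genes, and among those called lower in 4 of 112 (3.57%). The type I list held it in 9 of 17 and the interferon gamma list in 11 of 14. The 30 bases around a match are shown for 7 genes of the 2 lists, chosen after their values were seen, 5′ to 3′ along the gene, with the matched bases in capitals, so that the shared core and its varied flanks can be seen.
Ifit1 (chr19:34640794-34640823, plus strand): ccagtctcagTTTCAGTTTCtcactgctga
Ifit3 (chr19:34583397-34583426, plus strand): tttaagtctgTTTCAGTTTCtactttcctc
Isg15 (chr4:156200865-156200894, minus strand): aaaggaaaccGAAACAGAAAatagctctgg
Rsad2 (chr12:26456553-26456582, minus strand): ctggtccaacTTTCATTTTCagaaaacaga
Cxcl10 (chr5:92349083-92349112, minus strand): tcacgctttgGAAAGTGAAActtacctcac
Gbp2 (chr3:142620594-142620623, plus strand): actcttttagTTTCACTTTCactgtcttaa
Gbp5 (chr3:142496759-142496788, plus strand): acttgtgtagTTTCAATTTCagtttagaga
The match in Ifit1 began 85 bases before the start and that in Gbp2 59 bases before it. Ifit1 and Ifit3, which share the 10 matched bases, were both called higher, while Isg15 and Cxcl10 hold a match and were not called. Cxcl9 and Irf7, both called higher, had no match to these letters in the window. A match describes the sequence only.

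Of the cDC1 list, 5 of 7 measured genes were called higher in KO type 2 DCs and 0 lower (median 0.84): Irf8, Naaa, Wdfy4, Cst3 and Ifi205, the last also counted in the type I list. Irf8 was at 147 and 386 CPM, a ratio of 2.62 (2.07 to 3.35), and was found in 15 of 43 WT and 42 of 63 KO cells. In KO, 136 of its 342 UMIs lay in the 5 cells with plasmacytoid DC transcripts. Without such cells the log2 ratio was 0.82 in place of 1.39, and it was still called. Cst3 was at 4594 and 8246 CPM (1.79, 1.72 to 1.88). In cDC1s themselves the Irf8 level was 2003 and 1944 CPM, and 0 of 12 measured genes of the list were called higher and 0 lower. The list was also higher in KO monocytes, where 4 of 7 measured genes were called higher and 0 lower (median 0.62), against 4.49% of all genes called higher. In macrophages 1 of 8 was called higher and 1 lower.

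The other genes ranked highest in KO rested on few cells or few UMIs. Ly6d was at 39.7 and 215 CPM from 1 and 3 cells, and without cycling cells its ratio turned (log2 -2.89). Ear2, an eosinophil-associated ribonuclease, was at 6.62 and 59.9 CPM in 2 and 8 cells. Ly6i was at 13.2 and 61.0 CPM in 8 and 21 cells, and Rpia, an enzyme of the pentose phosphate pathway, at 11.6 and 52.0 in 6 and 19. Neither was called without the members with monocyte or with plasmacytoid DC transcripts. Ccl5 was at 9.93 and 68.9 CPM in 2 and 4 cells and was not called without its top cells. The cell-cycle gene 2810417H13Rik was at 28.1 and 103 CPM in 3 and 4 cells, and turned when the members with monocyte transcripts were left out (log2 -3.85).

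Genes that were lower in KO included most measured members of the macrophage list. Il1b, the inflammatory cytokine, was at 394 CPM in WT type 2 DCs, where 17 cells held it, and at 118 CPM in KO, where 19 did, a ratio of 0.298 (0.235 to 0.377). It was also lower in KO cDC1s (372 and 38.1 CPM) and monocytes (689 and 324). Lyz2 was at 1421 and 511 CPM (0.359, 0.32 to 0.403). Of 7 measured macrophage genes 5 were called lower and 0 higher (median -0.79): Csf1r, Cd68, Cd63, Lgmn and Ctsd. The top cell held 21.5% of the UMIs of the whole macrophage list in WT and 6.05% in KO. Without the members low in MHC class II 2 of 6 were called lower (median -0.44), and Ctsd (250 and 74.6 CPM) and Cd63 (56.2 and 4.52) lost their calls both then and without their top cells. Lpl, lipoprotein lipase, was at 106 and 21.5 CPM (29 and 2.31 without its top cells), C3ar1, a complement receptor, at 57.9 and 9.04 (not called without the members with monocyte transcripts), and Rilpl2 at 124 and 32.8. Cxcl2, a chemokine for neutrophils, had 38 UMIs in 3 WT cells (62.9 CPM) and none in KO, and without its top cell WT was at 25.3 CPM. It was not called without the members low in MHC class II, although the log2 ratio was still at most -3.51 against the floor. Tnfrsf9 (4-1BB) was at 51.3 CPM in 2 WT cells and had no UMI in KO. Genes of the dissociation stress list, which respond to tissue handling, moved the same way: 3 of 11 measured were called lower and 0 higher (median -0.50), with Dusp1 at 455 and 243 CPM, Ier2 at 488 and 241 and Atf3 at 210 and 136. Dusp1 was also lower in KO cDC1s (671 and 288), monocytes (1994 and 1085) and macrophages (663 and 310). The list was lower still in KO cDC1s, where 8 of 12 measured genes were called lower (median -0.79), against 3.19% of all genes. In monocytes 2 of 12 and in macrophages 4 of 11 were called lower, and in each of these 3 classes 1 was called higher. In type 2 DCs without the members with monocyte transcripts 1 of 11 was called lower (median -0.07). Whether handling of the samples had a part in the lower genes was not tested.

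Maturation genes of the mature DC list were called lower for 3 of 6 measured genes and higher for 1 (median -0.97). Cd83 was at 283 and 102 CPM (ratio 0.36, 0.275 to 0.467), Il4i1 at 64.5 and 21.5, and Marcksl1 at 136 and 44.1, while Ccl5 was the gene called higher. The list's median turned to 0.14 without the members that held monocyte transcripts, with 2 of 5 called lower. The selection itself capped Fscn1, Ccl22 and Cacnb3 in both libraries.

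Of 9 measured co-stimulatory and inhibitory ligands, which bind receptors on T cells, 3 were called lower (Cd80, Cd86 and Tnfsf9), 1, Cd274, was called higher, and the median was -0.16. Without the members with monocyte transcripts 1 of 7 was called lower (median 0.16). Cd80, which binds Cd28 and Ctla4, was at 52.9 CPM in 16 WT cells and 15.8 CPM in 9 KO cells (0.299, 0.147 to 0.576). Cd86, its partner ligand, was at 116 and 71.2 (0.615, 0.43 to 0.877). Cxcl16, the ligand of Cxcr6, was at 59.6 and 35.0 (0.588, 0.352 to 0.978). The Cxcl16 call was lost without its top cells (log2 -0.55), without cells with monocyte transcripts (-0.54), with at most 1 C1q UMI (-0.71) and after thinning (-0.71). The Cd80 call was lost in 3 settings (log2 -1.69 with at least 5 selecting UMIs, -1.30 without cells with monocyte transcripts, -1.52 with at most 5% mitochondrial UMIs), and the Cd86 call in 3 (-0.55 with selecting UMIs scaled to depth, -0.89 without cycling cells, -0.67 after thinning). Cd80 lay close to the minimum of 50 CPM in WT. Without cells with monocyte transcripts it was at 43.1 and 17.5 CPM, under that minimum, so it could not be called there. Cd40 did not differ by the rule (114 and 134 CPM; 1.18, 0.868 to 1.61). Il12b had no UMI in type 2 DCs of either library.

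Ifi202b, an interferon-inducible gene of the Ifi200 family at chr1:173962568-173982744 (GRCm38, minus strand), had 66.2 CPM in WT and no UMI in KO type 2 DCs. Its KO level was at 0 in the other 3 classes too, against 59.4 CPM in WT cDC1s, 46.4 in monocytes and 68.8 in macrophages. Against the floor of 3 counts the log2 ratio in type 2 DCs was at most -4.29. Its neighbours went the other way in type 2 DCs: Ifi204 was at 67.8 and 105 CPM and Ifi205 at 374 and 664, both called higher. The family is made of close copies, so the division of reads among them is uncertain.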

How the data were processed

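The authors deposited filtered 10x count matrices (UMI counts per gene and barcode, 27998 genes), made with Cell Ranger 1.3 against mm10 per the submitters' processing notes; the file headers name software version 3.0.2. The WT and KO libraries were analysed as 1 sample each. Barcodes were filtered and type 2 DCs selected as the report states. cDC1s needed at least 3 UMIs of Xcr1 and Clec9a, monocytes at least 3 of Ly6c2, Vcan, Chil3 and F13a1 and 1 of Ms4a6c, and macrophages at least 10 of the C1q genes, with limits on the other classes' genes. Genes used in any selection were fitted but not counted, and their levels are given as description only.

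The members and the 29 gene lists (389 genes) were chosen with earlier results of these data known. UMIs were summed per class and library and tested with edgeR 4.0.16 (R 4.3.3), quasi-likelihood, TMM scaling, class and library as terms, after the filter on low counts, with Benjamini-Hochberg adjustment over the 6680 genes tested. KO over WT ratios have exact conditional binomial 95% intervals, with a floor of 3 counts where a library was at 0. Named genes are the 10 highest and 10 lowest against the mean of the 3 classes, the 6 and 6 against each class, the 10 and 10 of KO against WT ranked by the interval bound nearest to 1, a few fixed ligand genes, and list members with the highest levels or largest called ratios; others named were chosen after their values were seen. Both procedures were tested on simulated data with known changes. Counts were handled with numpy 2.4.6, scipy 1.17.1 and pandas 2.3.3, doublets scored with Scrublet in scanpy 1.11.5, and DESeq2 1.42.0 was an alternative tool. Other alternatives varied the selection, depth, filters and scaling. Leaving out members with plasmacytoid DC transcripts, with mitotic transcripts or low in MHC class II, or the top cells of the split by monocyte transcripts, was chosen after seeing the data. Class totals were 604465 and 884919 UMIs for WT and KO type 2 DCs. PCR duplicates are removed by UMIs, so intervals cover molecule counting only. Trac, Trbc1, Trbc2, Ighm, Nectin2, Cxcl11, Clec7a and Mx2 were not analysed here.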

Additional observations from a re-analysis of the deposited data

Results flagged for a closer look

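Among the named KO over WT genes, 4 had calls in opposite directions in type 2 DCs and in macrophages. The log2 ratio of Ifit1 was 1.43 in type 2 DCs and -1.53 in macrophages (216 and 74.8 CPM). Cd274 was at 0.86 in type 2 DCs and -0.83 in macrophages. Lyz2 was at -1.48 in type 2 DCs and 0.63 in macrophages. Cxcl2 was at most -4.21 in type 2 DCs, where the KO library had no UMI, and 0.96 in macrophages (133 and 258 CPM). The macrophage sums hold 30 and 39 cells, and with 1 library per group the difference between the classes was not tested.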

How the results depend on the processing

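With type 2 DCs under 3 UMIs of the cycling list alone (7 cells per library), the class counts fell to 154 higher and 66 lower against cDC1s, 89 and 150 against monocytes, 144 and 208 against macrophages and 64 and 30 against the mean of 3, KO calls were 93 higher, and the shares of filtered cells were 0.709% in WT and 0.645% in KO. In that setting the median KO over WT log2 ratio of the macrophage list turned to 0.026 and that of the dissociation stress list to 0.642, and Ly6d to -2.89. Without members with monocyte transcripts the KO share was 3.59%, the mature DC list median turned to 0.141 and 2810417H13Rik to -3.85. DESeq2 called 149 genes lower than in cDC1s (148 of them among the 292), 191 higher than in monocytes and 210 higher than in macrophages. With no filter on low counts 461 genes were higher than the mean of 3. KO calls were 109 higher after thinning to 3000 UMIs (57 shared with the 170) and 112 lower (37 shared with the 156), 34 higher and 28 lower at a minimum of 200 CPM, and 273 and 249 at 20 CPM. In the other settings run, these counts over all genes stayed within 1.5 times and the shares within their interval. Counts per list moved more: type I interferon genes called higher in KO were 9 of 20 with selecting UMIs scaled to depth, and lysosome genes called lower were 2 of 17, in place of 6 of 18, in that setting, with at least 5 selecting UMIs, without members low in MHC class II and after thinning. Macrophage genes called lower were 3 of 6 with the first 2 of these and 2 of 5 after thinning. Genes already called in the fit of both libraries were also counted in each library alone, at 2-fold or more and with no test. Against cDC1s 572 to 583 of the 609 higher and 246 of the 292 lower genes met this. Against monocytes 302 to 328 of 359 and 430 to 438 of 470 did, and against macrophages 326 to 330 of 363 and 391 to 398 of 426. Against the mean 269 to 273 of 303 and 92 to 104 of 113 did. The genes were chosen with both libraries, so these counts are not an independent check. Without the replicate block for library, edgeR called 585 and 276, 337 and 450, 348 and 415, and 288 and 105, so the block changed no count by over 1.5 times. No paired analysis was possible for KO against WT because each group is 1 library. Depth limits low genes most: a count of 0 in type 2 DCs allows 4.96 CPM in WT and 3.39 in KO.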

Other observations

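MHC class I and antigen-processing genes showed little difference between classes or libraries. Of 16 tested, 0 were higher and 1, the immunoproteasome subunit Psmb9 (288 and 394 CPM in WT and KO type 2 DCs against 736 and 824 in cDC1s), was lower than in cDC1s, and 0 of 13 measured were called in either direction between KO and WT. B2m, the shared light chain, was at 1299 and 1632 CPM.

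S100a4 and S100a6, small calcium-binding proteins, were higher than in cDC1s: S100a4 was at 280 and 226 CPM against 3.74 and 0.433 (edgeR log2 6.85 ± 0.42, adjusted p = 1.32e-07), and S100a6 at 3792 and 3643 against 403 and 372. Of 12 glycolysis genes the glucose transporter Slc2a1 and the enzyme Eno1 were higher than in cDC1s, and 0 of 11 measured were called between KO and WT (median log2 ratio -0.28). Tcf4, a transcription factor of plasmacytoid DCs, was at 131 and 105 CPM, against at most 55.4 in the other classes. Napsa, an aspartic protease, was higher than in monocytes and macrophages (1093 and 1213 CPM against 417 and 555 and 93.3 and 94.1).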
